A study of Mus musculus with 192 samples.

Results

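The tripartite-motif (TRIM) genes were taken as every row of the count table whose symbol is Trim followed by a number and at most 1 letter, which gave 68 of 49466 genes. A count was found in at least 1 well for 50 of them, and those 50 are described here. Single cells were sorted as erythroid progenitors from fetal liver of C57/Bl6J mice at embryonic day 14.5, with no allele or treatment named. The liver cells were depleted of cells bearing lineage antigens, Sca-1, CD16/32 or CD41 and sorted after staining for CD117, CD71 and CD24. A plate of 96 wells was filled with cells sorted as burst-forming units-erythroid (BFU-E), which are early red cell progenitors. Another was filled with cells sorted as colony-forming units-erythroid (CFU-E), which arise from them. Below, BFU-E cells means all 92 kept cells of the first plate, of which a cluster of 40 had high Mpo and little Klf1 or Epor. Each well was sequenced by SmartSeq2, which reads the full length of polyadenylated transcripts. No label names the animals or pools behind the cells, and each cell type sat on a plate of its own. Every BFU-E column name carries the mark s_2 and every CFU-E one s_3, and what these marks stand for is not given in the sources used here. Every difference between the cell types is therefore between 1 sample and 1 sample, with no replicate check and no p-value. It cannot be told apart from a difference between plates or between whatever s_2 and s_3 stand for.

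TRIM proteins share an N-terminal RING finger, 1 or more B-box zinc fingers and a coiled coil, and most act as E3 ubiquitin ligases, the enzymes that choose which proteins are tagged with ubiquitin. The C-terminal domain differs between subfamilies and sets the partner that is bound: PRY-SPRY in the largest class, PHD finger and bromodomain in the chromatin regulators TRIM24, TRIM28 and TRIM33, and NHL repeats in TRIM2, TRIM3, TRIM32 and TRIM71. In red cell biology the family is known for TRIM10, first described as a haematopoietic RING finger protein of maturing erythroid cells, for TRIM58, which removes dynein during expulsion of the nucleus, and for TRIM28 and TRIM33, which act on chromatin and on transcript elongation in progenitors. Many PRY-SPRY members are interferon-inducible antiviral proteins, and mouse chromosome 7 carries a run of them.

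The upstream sequences of 4 members are printed because the results turn on these genes: Trim10 and Trim2 were close to absent from BFU-E cells, Trim58 is the member known for a late erythroid role, and Trim30a was close to absent from CFU-E cells. They are the 250 bases before the annotated start, read 5′ to 3′ on the gene's strand, from RefSeq on GRCm38.p6. Capitals mark matches on either strand to the letters bound by GATA factors (AGATAA and TGATAA, each also with a final G) in the first 3, and to the core of the interferon-stimulated response element (GAAANNGAA) in Trim30a.
Trim10, chr17:36869324-36869573, plus strand: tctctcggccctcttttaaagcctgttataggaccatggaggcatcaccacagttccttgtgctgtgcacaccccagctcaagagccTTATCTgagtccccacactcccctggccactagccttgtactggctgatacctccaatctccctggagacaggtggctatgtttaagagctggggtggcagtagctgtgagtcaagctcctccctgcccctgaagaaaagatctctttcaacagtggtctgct
Trim2, last of 5 annotated starts, chr3:84212839-84213088, minus strand: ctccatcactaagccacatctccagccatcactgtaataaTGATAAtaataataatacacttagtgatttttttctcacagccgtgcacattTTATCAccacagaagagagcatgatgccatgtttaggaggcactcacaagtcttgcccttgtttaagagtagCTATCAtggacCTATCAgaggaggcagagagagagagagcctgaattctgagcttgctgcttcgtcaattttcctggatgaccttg
Trim58, chr11:58640215-58640464, plus strand: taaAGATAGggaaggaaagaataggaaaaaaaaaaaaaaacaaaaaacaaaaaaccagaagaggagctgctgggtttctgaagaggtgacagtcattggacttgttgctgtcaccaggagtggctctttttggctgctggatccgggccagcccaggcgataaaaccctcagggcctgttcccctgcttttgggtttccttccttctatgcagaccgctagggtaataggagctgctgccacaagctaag
Trim30a, first of 2 annotated starts, chr7:104465194-104465443, minus strand: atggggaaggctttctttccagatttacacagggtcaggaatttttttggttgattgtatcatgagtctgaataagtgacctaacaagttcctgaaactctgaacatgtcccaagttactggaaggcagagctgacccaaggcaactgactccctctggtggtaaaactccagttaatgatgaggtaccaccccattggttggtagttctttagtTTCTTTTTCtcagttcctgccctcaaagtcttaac

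The Trim10 match ended 158 bases before the start and the Trim58 match 242 bases before it. At the last Trim2 start the 4 matches lay 205, 153, 81 and 70 bases upstream, and the other 4 Trim2 starts had none; this window was chosen after the matches were seen. The Trim30a match lay 27 bases upstream. Windows were given for 53 of the 68 members (67 windows in all), and the GATA letters were in 11 of the 67 windows, from 11 members. Over all 32851 mouse windows of this length 26.5% held a GATA match, a higher share than among the members' windows, and 0.210% held at least 4. The interferon core was in 8 of the 67 windows, from 8 members (Trim5, Trim7, Trim12c, Trim25, Trim26, Trim30a, Trim30d and Trim34b), and in 7.13% of all windows. A match describes these letters only, and the counts are per gene, so the start used in these cells was not resolved.

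Gene-assigned counts per well had a median of 1099619.5 (6473 to 3864040) on the BFU-E plate and of 999396 (5825 to 2992101) on the CFU-E plate. The 92 BFU-E and 89 CFU-E cells that had at least 100000 counts and 2000 genes were used, each was thinned to 100000 counts, and the thinned counts were summed per cell type and expressed as counts per 1000000 counts (CPM). Brackets after a level or a fold give an exact 95% interval of counting error only; reads amplified by PCR carry no molecular identifier, so they are not independent molecules. Of the 95 CFU-E index pairs, 95 were also used on the BFU-E plate. Erythroid markers stood at 10920 CPM in CFU-E and 1266 CPM in BFU-E cells, with a count of 15 of 15 genes in each. The BFU-E plate was not uniform: clustering with the TRIM genes left out gave 40 cells, here called Mpo-high, and 52 cells, here called Klf1-high. Emb, Mpo and Cd34 were among the 10 top-ranked genes of the Mpo-high cells, which had 5657 CPM of 13 granulocyte and monocyte markers. Car1, Klf1 and Epor were among the 10 top-ranked genes of the Klf1-high cells, which had 114 CPM of those markers. CFU-E cells had 1.24 CPM of that list, with Mpo, Elane, Ctsg and Cebpa at 0. On the CFU-E plate 6 cells had a count of at least 3 of 12 lymphoid markers. Results are given against all BFU-E cells and, for many genes, against the Klf1-high cells alone.

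Trim10 and Trim2 stood far above the rest of the family in CFU-E over BFU-E cells, while Trim30a and Trim34a, from a block of interferon-related genes on chromosome 7, had the lowest log2 differences of the 30 named members. A gene was counted as measured when its mean over the 2 cell types reached 5 CPM. Of 29 measured members, 2 were higher in CFU-E cells by at least 2-fold (6.90%, against 6.28% of all 9445 measured genes) and 14 were at least 2-fold lower (48.3%, against 34% of all). The median log2 difference, taken throughout as log2 of CFU-E CPM + 1 over BFU-E CPM + 1, was -0.59 over these members and -0.57 over all measured genes, so the typical gene was itself lower in CFU-E cells on the scale of total counts. With TMM factors, a scaling that centres the bulk of the genes, that all-gene median was 0.01. On that scale 4 of 28 members were at least 2-fold higher (14.3%, against 15.4% of all genes), 9 were at least 2-fold lower (32.1%, against 18.9%), and the members' median was 0.08. Against the Klf1-high cells alone 4 of 29 were higher (13.8%, against 5.97%) and 12 were lower (41.4%, against 31.3%). A member can pass the level filter through the cell type where it is high, so the counts describe the family and support nothing by themselves. Over all 46 members with a count after thinning, 11 lay above 0 and 35 below, with a median of -0.87. With TMM 17 lay above and 29 below, with a median of -0.58. The same was not counted over all genes with a count. At a level of at least 1 CPM the members' median on total counts was -1.13, beside -0.64 over all genes.

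**Figure D1:**
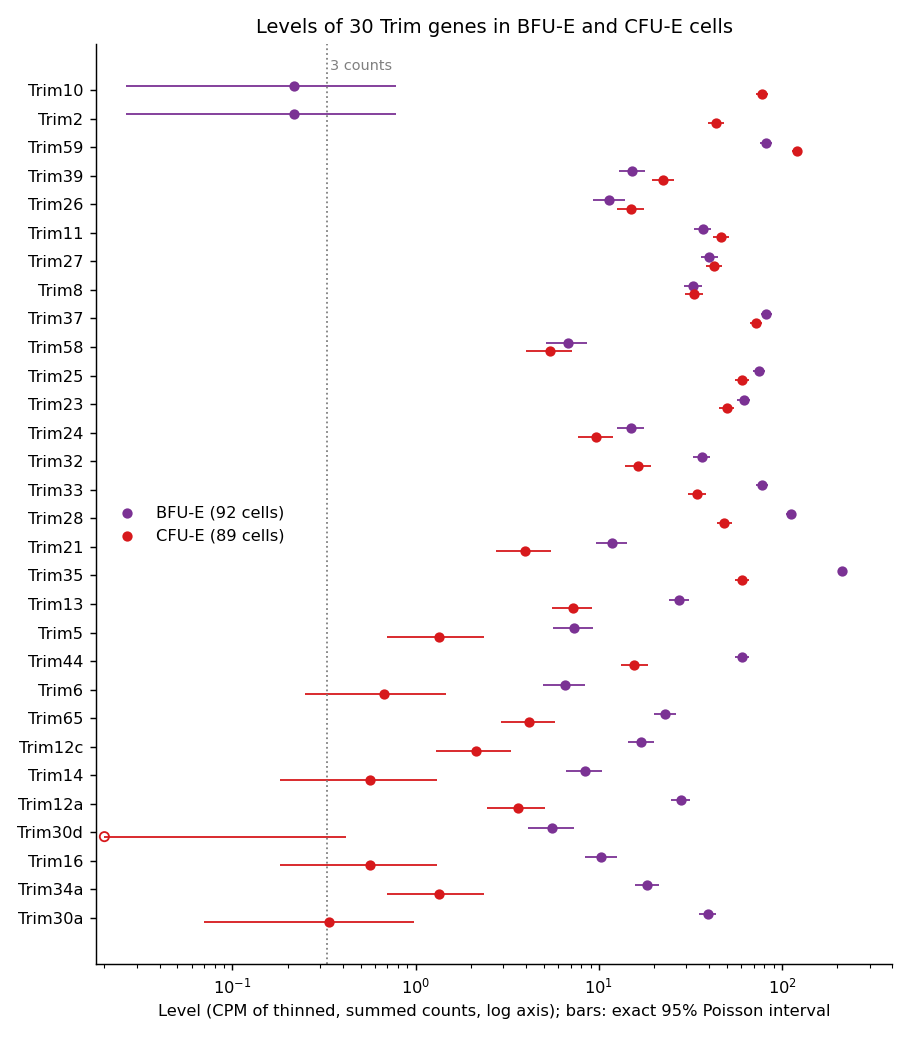
Levels of 30 named Trim genes in BFU-E cells (purple, 92 cells) and CFU-E cells (red, 89 cells), in CPM of thinned and summed counts on a log axis, with exact 95% Poisson intervals as bars; the open symbol at the left edge is a level of 0 and the dotted line is 3 counts. In CFU-E cells Trim10 lies at 78.1 CPM and Trim2 at 43.5 CPM, and both are under the dotted line in BFU-E cells, while Trim30a lies at 39.3 CPM in BFU-E cells against 0.337 CPM.

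The family as a whole took 1202 CPM of BFU-E and 822 CPM of CFU-E counts. Per cell the summed count ran from 40 through a median of 112.5 to 268 of 100000 in BFU-E cells and from 35 through 80 to 174 in CFU-E cells, so the ranges overlapped. A BFU-E cell had counts of 6 to 21 members (median 13) and a CFU-E cell of 8 to 18 (median 13). Divided by exonic length, the highest levels in BFU-E cells were those of Trim35 (45.8 CPM per kb), Trim28 (26.8) and Trim59 (24.4), with the intervals of the last pair overlapping. In CFU-E cells Trim59 (35.8 CPM per kb) and Trim10 (34.8) led with overlapping intervals, above Trim35 (13.1), Trim11 (12.9) and Trim28 (11.6), whose intervals overlapped among themselves.

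Trim10 (ENSMUSG00000073400, chr17:36869574-36877833, plus strand, GRCm38) encodes a PRY-SPRY protein named for its expression in blood-forming cells. Its count per CFU-E cell ran from 0 through a median of 5 to 34, and 76 of 89 cells had a count (85.4%, 76.3 to 92). Among the 92 BFU-E cells 1 cell had a count, of 2, and the other 91 had none. The ranges therefore met only at the low end, where 13 CFU-E cells also had no count. Among those 13 were CFU-E cells 33, 35 and 91, each with a count of 9 lymphoid markers. The level was 78.1 CPM (72.4 to 84.1) in CFU-E cells, against 0.217 CPM (0.0263 to 0.785) in the other type. The ratio was 359 (99.1 to 2972) and rests on 2 BFU-E counts. The cell with those 2 counts was among the Mpo-high cells; the 52 Klf1-high cells had none (interval up to 0.709 CPM), and CFU-E cells were at least 135-fold above the floor of 3 counts there, 0.577 CPM. Without thinning the kept cells held 8760 CFU-E and 30 BFU-E counts. As a measure of the spread within a plate, cells with odd and with even label numbers were read apart: the log2 difference was 6.28 in the former and 5.80 in the latter.

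Trim2 (ENSMUSG00000027993, chr3:84160439-84306877, minus strand) encodes an NHL-repeat ligase best known from neurons, where it binds neurofilament protein. CFU-E cells had 0 through a median of 2 to 32 counts, and 48 of 89 had at least 1 (53.9%, 43 to 64.6). BFU-E cells had at most 1 count, in 2 of 92 cells, so CFU-E cells without a count (41 of 89) overlapped with them. The level was 43.5 CPM (39.3 to 48) against 0.217 CPM (0.0263 to 0.785), a ratio of 200 (55 to 1658), and at least 75.4-fold above the floor in the Klf1-high cells, where no count was found. Because its annotated exons span 19.8 kb, the level per length in CFU-E cells was 2.20 CPM per kb, well under that of Trim10. Without thinning there were 4038 CFU-E and 47 BFU-E counts. Odd and even label numbers gave log2 differences of 5.17 and 5.23.

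**Figure D2:**
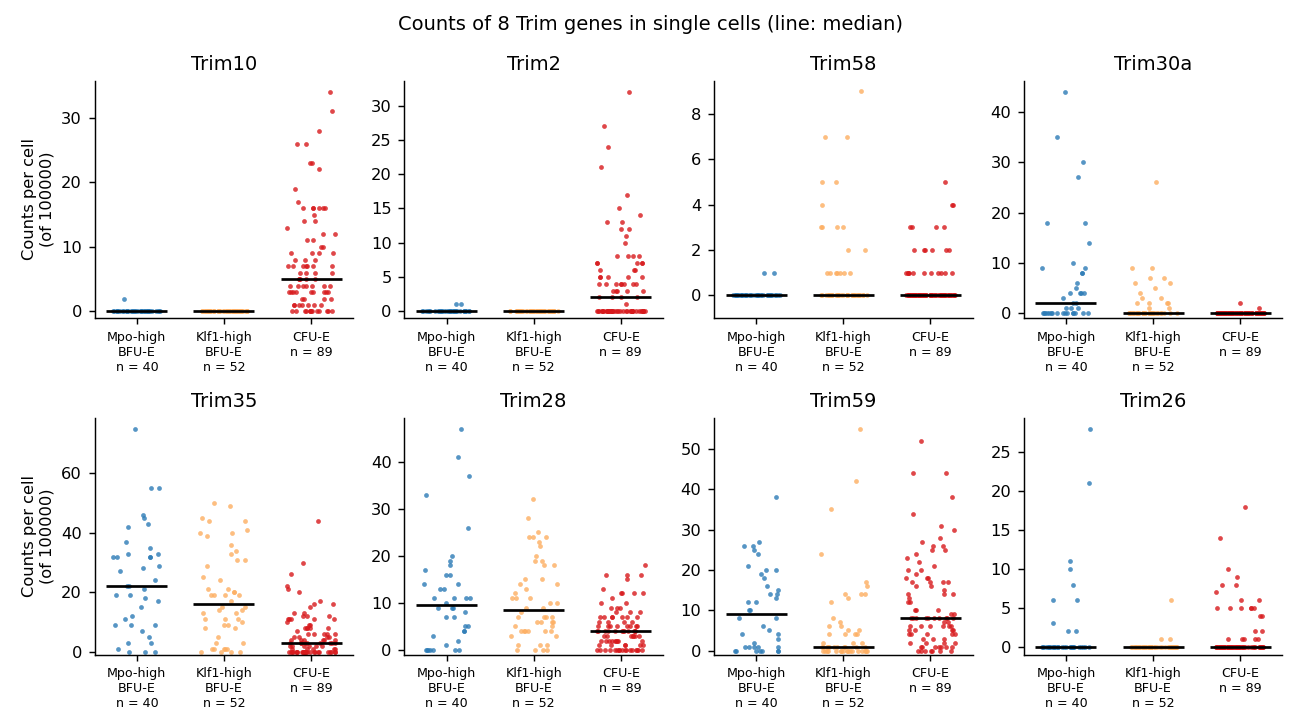
Counts of 8 Trim genes in each cell after thinning to 100000 counts, for Mpo-high BFU-E cells (blue, 40), Klf1-high BFU-E cells (orange, 52) and CFU-E cells (red, 89); each point is a cell, spread sideways at random, and the line is the median. Trim10 and Trim2 points above 2 counts are all from CFU-E cells, while Trim30a reaches 44 counts in Mpo-high cells and at most 2 in CFU-E cells.

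Within the 89 CFU-E cells Trim10 and Trim2 were not confined to the same cells. Both had a count in 43 cells, Trim10 alone in 33, Trim2 alone in 5 and neither in 8, with a Spearman coefficient of 0.21. Trim10 counts had coefficients of 0.53 with Hba-a1 (alpha-globin), 0.50 with Slc4a1 (the band 3 anion exchanger), 0.32 with Car2 (carbonic anhydrase) and 0.13 with Klf1. For Trim2 the values were 0.27 with Hba-a1 and 0.31 with Slc4a1. These are descriptions over cells of 1 plate that share library and depth.

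Of the other members with a higher level in CFU-E cells, Trim59, which encodes a membrane-anchored protein, had the highest level of the family there. It ran from 0 through a median of 8 to 52 counts per CFU-E cell and from 0 through 4 to 55 per BFU-E cell, which is a full overlap. The level was 120 CPM (113 to 128) against 81.6 CPM (75.9 to 87.7), 1.47-fold higher (1.34 to 1.62), with a log2 difference of 0.55 on total counts and 1.12 with TMM. Trim39, a PRY-SPRY ligase linked to cell death and the cell cycle, was at 22.5 CPM (19.5 to 25.8) against 15.2 (12.8 to 18), with log2 differences of 0.53 and 1.08. Both were under 2-fold on total counts and over it with TMM, and Trim39 was also over it against the Klf1-high cells (7.50 CPM). Trim26, which neighbours Trim10 on chromosome 17, was at 14.9 CPM in CFU-E cells against 11.4 CPM in BFU-E cells. Its BFU-E counts came almost wholly from the Mpo-high cells (24.2 CPM, 19.7 to 29.6) and not the Klf1-high cells (1.54 CPM, 0.664 to 3.03), so CFU-E cells were 9.71-fold higher (4.79 to 23) than the latter. For Trim26 the log2 difference from all BFU-E cells was 1.16 among odd and -0.72 among even label numbers, a spread wider than its counting interval. Trim11 (46.3 against 37 CPM), a ligase linked to the clearance of misfolded protein, Trim27 (42.4 against 40.1), a transcriptional regulator first found fused to RET, and Trim8 (33 against 32.8), a regulator of cytokine signalling, differed by at most 1.25-fold.

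The family members clustered at chr7:104218793-104507849 showed the opposite pattern. The 289 kb block holds 10 members in the order Trim6, Trim34a, Trim5, Trim12a, Trim34b, Trim12c, Trim30b, Trim30c, Trim30a and Trim30d, relatives of the retroviral restriction factor TRIM5. A count was found for 9 of them after thinning, and 9 of those 9 were lower in CFU-E cells than in all BFU-E cells. The share of all genes that were lower by any amount was not counted. Trim30b and Trim34b had 11 and 5 BFU-E counts, all in Mpo-high cells, so against the Klf1-high cells they showed no difference. The 4 members of the block that were measured (Trim12a, Trim12c, Trim30a and Trim34a) were each at least 2-fold lower, also with TMM and against the Klf1-high cells. All 4 were at 3.60 CPM or less in CFU-E cells and passed the level filter only through BFU-E cells. Their number therefore supports nothing by itself. Over all genes 34% were at least 2-fold lower on total counts, 18.9% with TMM and 31.3% against the Klf1-high cells. Summed, the block stood at 124 CPM in BFU-E cells against 9.44 CPM in CFU-E cells, with 182.5 CPM in Mpo-high and 78.7 CPM in Klf1-high cells. These genes are near copies of each other, and the handling of reads that map to several of them is not given in the sources used here, so values of single members are uncertain.

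Trim30a, whose protein is known as a brake on inflammatory signalling, had the highest level of the block over all BFU-E cells. They had 0 through a median of 0 to 44 counts with a count in 41 of 92 cells (44.6%, 34.2 to 55.3), while CFU-E cells had at most 2 counts, in 2 of 89 cells (2.25%, 0.273 to 7.88). The level was 39.3 CPM (35.4 to 43.6) against 0.337 CPM (0.0695 to 0.985), a ratio of 117 (39.6 to 569) that rests on 3 CFU-E counts (23 without thinning, against 4175 in BFU-E cells). Within the BFU-E plate it was at 66.8 CPM in Mpo-high and 18.3 CPM in Klf1-high cells, and CFU-E cells were 54.2-fold lower (18 to 267) than the latter. Trim12a (27.9 against 3.60 CPM) was 7.77-fold lower (5.37 to 11.6) and Trim12c (17.1 against 2.13 CPM) 7.99-fold lower (4.95 to 13.6). Trim34a, at 18.4 against 1.35 CPM, was 13.6-fold lower (7.6 to 26.9); 23.5% of its exonic bases overlap an antisense gene, and the libraries do not mark strand. Trim30d was found in 5 BFU-E cells (5.54 CPM) and in no CFU-E cell, which, with a floor of 3 counts, is at least 16.4-fold lower. Trim5 (7.28 against 1.35 CPM) and Trim6 (6.52 against 0.674 CPM) came from 9 and 13 BFU-E cells.

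**Figure D3:**
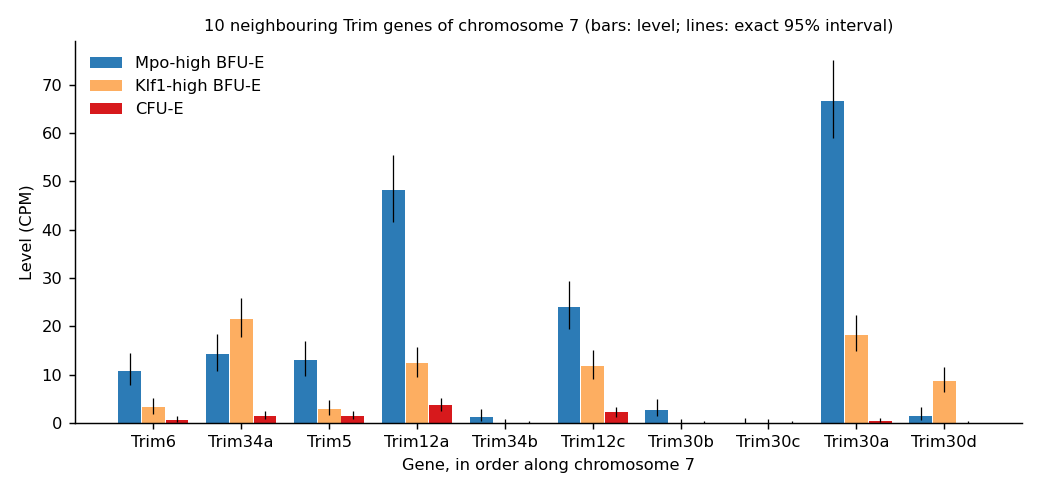
Levels in CPM of the 10 neighbouring Trim genes of chromosome 7, in genomic order, in Mpo-high BFU-E (blue), Klf1-high BFU-E (orange) and CFU-E cells (red); bars start at 0 and lines are exact 95% Poisson intervals. Trim30a and Trim12a are highest in Mpo-high cells (66.8 and 48.2 CPM), Trim34a and Trim30d in Klf1-high cells, and CFU-E cells are at 3.60 CPM or less for every gene of the block.

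Genes of the interferon response outside the family were also counted. Of 26 listed, 16 were measured and 10 of those were at least 2-fold lower in CFU-E cells, where 34% of all genes were. With TMM 6 were (18.9% of all genes) and against the Klf1-high cells 7 (31.3%), and none was at least 2-fold higher in these 3 comparisons. The list's median log2 difference was -1.29 on total counts (-0.57 over all genes), -0.68 with TMM (0.01) and -0.61 against the Klf1-high cells, close to the -0.53 of all genes. Ifitm3, a membrane protein that blocks virus entry, was at 45.5 CPM in BFU-E cells against 0.337 CPM in CFU-E cells. Irf1, a transcription factor of the response, was at 48.5 against 3.37 CPM, and Ddx58, which encodes the RNA sensor that TRIM25 modifies, at 20 against 1.01 CPM. Trim25 itself was at 74.6 CPM (69.1 to 80.4) against 60.2 (55.2 to 65.5), 1.24-fold lower on total counts and 1.20-fold higher with TMM. Trim21, the cytosolic antibody receptor, was at 11.7 CPM (9.63 to 14.2) against 3.93 (2.74 to 5.47), 2.99-fold lower (2.02 to 4.5), with log2 differences of -0.52 among odd and -2.25 among even label numbers. Against the Klf1-high cells it was 1.86-fold lower (1.14 to 3.03), under 2-fold. The Mpo-high cells carried the higher share of this signal on the BFU-E plate (Ifitm3 89.2 against 11.9 CPM, Irf1 101 against 8.08 CPM in Klf1-high cells). Stem and multipotent progenitor markers moved the same way, at 2716 CPM in Mpo-high, 1331 CPM in Klf1-high and 108 CPM in CFU-E cells. Megakaryocyte markers went the other way within the plate, at 166 CPM in Mpo-high and 427.5 CPM in Klf1-high cells. They stood at 314 CPM over the whole BFU-E plate against 24.8 CPM in CFU-E cells. The part of these markers, or of the granulocyte and monocyte ones, in the differences was not tested.

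The chromatin regulators Trim28 and Trim33 were among the more abundant members in BFU-E cells and were lower in CFU-E cells by about the same factor. Trim28, the co-repressor recruited by KRAB zinc finger proteins, ran from 0 through a median of 9 to 47 counts per BFU-E cell and from 0 through 4 to 18 per CFU-E cell, so that the ranges overlapped while the top BFU-E cells stood above every CFU-E cell. Its level was 111 CPM (105 to 118) against 48.3 CPM (43.9 to 53.1), 2.30-fold lower (2.06 to 2.58), with log2 differences of -1.22 and -1.15 among odd and even label numbers. Trim33, which binds SMAD proteins and aids transcript elongation at erythroid genes, ran from 0 through 5 to 41 and from 0 through 2 to 19 counts per cell. Its level was 77.9 CPM (72.3 to 83.9) against 34.3 CPM (30.5 to 38.3), 2.27-fold lower (1.99 to 2.61). Both were nearly as often found in either cell type (Trim28 in 88% and 80.9% of cells, Trim33 in 81.5% and 80.9%). Relative to the typical gene the differences were smaller: with TMM the log2 values were -0.62 for Trim28 and -0.60 for Trim33, under 2-fold. Trim24, the third gene of this class with a count and a co-regulator of nuclear receptors, was at 15 against 9.66 CPM, and at 24.5 CPM in Mpo-high and 7.69 CPM in Klf1-high cells. Trim66, the remaining PHD-bromodomain member, had counts in wells but none after thinning.

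Genes whose products work with these regulators were counted in the same way. Of 18 listed partners of TRIM28 in heterochromatin, 17 were measured and 5 were at least 2-fold lower (2 with TMM), none higher, with a median log2 difference of -0.72 beside -0.57 over all genes. These counts are under the shares of all genes, 34% on total counts and 18.9% with TMM. The largest differences were in Mphosph8 (44.8 against 10.7 CPM) and Fam208a (52.2 against 21.8), subunits of the HUSH silencing complex, and Atf7ip (305 against 88.1), the partner of the methyltransferase SETDB1. Of 18 listed partners of TRIM33, 17 were measured, 4 were at least 2-fold lower and 1 higher (2 and 1 with TMM), with a median of -0.34, and the lower counts were again under those shares. Smad4 was at 14.8 against 3.37 CPM, Smad5 at 41.8 against 13.5 CPM, and the elongation factor gene Ell2 at 11.2 against 29.1 CPM. Of the Smad4 counts of CFU-E cells, 43.3% were from 1 cell. In Klf1-high cells these 3 genes were at 7.12, 23.3 and 14.8 CPM. Against those cells Smad4 was 2.11-fold lower, Smad5 1.73-fold lower and Ell2 1.97-fold higher. Of the 17 partners measured in that comparison, 2 were at least 2-fold lower and 0 higher.

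Trim58 was low in both cell types, and its level depended on which BFU-E cells were counted. It was found in 21 of 92 BFU-E cells (22.8%, 14.7 to 32.8; 0 through a median of 0 to 9 counts) and in 24 of 89 CFU-E cells (27%, 18.1 to 37.4; 0 through 0 to 5 counts). The levels of 6.74 CPM (5.17 to 8.64) and 5.39 CPM (3.98 to 7.15) differed by less than counting error (1.25-fold lower, 0.843 to 1.86), and the sign turned with TMM (log2 difference 0.21) and with another thinning (0.32). Within the BFU-E plate 60 of its 62 counts were in Klf1-high cells, at 11.5 CPM (8.81 to 14.9) against 0.5 CPM (0.0606 to 1.81) in Mpo-high cells, a ratio of 23.1 (6.12 to 195). CFU-E cells were 2.14-fold lower (1.44 to 3.20) than the Klf1-high cells. TRIM58 acts on dynein in later erythroblasts, and genes for dynein subunits and for regulators of dynein were listed. Whether TRIM58 acts on the listed regulators is not addressed here. Of the 14 listed genes, 12 were measured and 2 were at least 2-fold lower in CFU-E cells (0 lower and 1 higher with TMM), under the 34% and 18.9% of all genes that were lower. Dynlrb1 was at 50.7 against 17.8 CPM, Pafah1b1 at 99.8 against 41.3 CPM and Ndel1 at 59.1 against 30.2 CPM.

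Trim35 had the highest level of the family in BFU-E cells and was lower in CFU-E cells. Its protein, also named for lineage switching in a line of erythroid cells, belongs to the PRY-SPRY class. BFU-E cells had 0 through a median of 19 to 75 counts, CFU-E cells 0 through 3 to 44, with a count in 92.4% (84.9 to 96.9) and 71.9% (61.4 to 80.9) of cells. The level was 211 CPM (202 to 221) against 60.3 CPM (55.3 to 65.7), 3.50-fold lower (3.18 to 3.86), with a log2 difference of -1.79 on total counts, -1.22 with TMM, and -1.49 and -2.14 among odd and even label numbers. It differed little within the BFU-E plate (239 CPM in Mpo-high and 190 CPM in Klf1-high cells), and CFU-E cells were 3.15-fold lower (2.83 to 3.50) than the Klf1-high cells alone. Over all CFU-E cells, those with lymphoid markers included, the Spearman coefficient between Trim35 and Trim10 was -0.22.

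**Figure D4:**
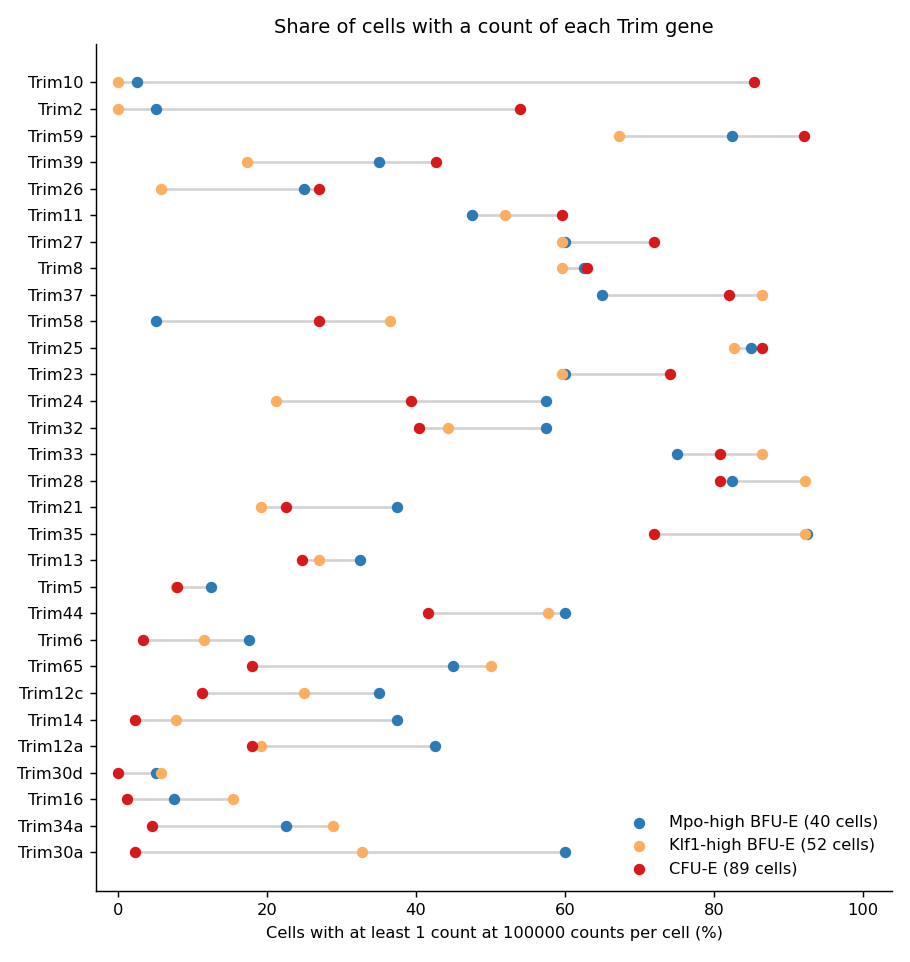
Share of cells, in percent, with at least 1 count of each of 30 Trim genes at 100000 counts per cell, for Mpo-high BFU-E (blue, 40 cells), Klf1-high BFU-E (orange, 52 cells) and CFU-E cells (red, 89 cells), joined by a grey line. Trim10 stands at 2.5%, 0% and 85.4% and Trim30a at 60%, 32.7% and 2.25%, while Trim25, Trim33 and Trim28 lie at 75% or above in each.

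Among the other ligases, Trim37, which limits centriole assembly, was at 82.1 against 72.1 CPM, and Trim23, which carries an ARF GTPase domain, at 61.7 against 49.8 CPM; both were lower on total counts and higher with TMM (log2 0.38 and 0.26). Trim32, an NHL-repeat ligase best known from muscle, was at 36.3 against 16.4 CPM, 2.21-fold lower (1.82 to 2.71) and under 2-fold with TMM (-0.55). Trim44, which lacks the RING finger, was at 60.4 against 15.6 CPM, 3.87-fold lower (3.21 to 4.69). Trim13, anchored in the endoplasmic reticulum, was at 27.4 against 7.19 CPM, 3.81-fold lower (2.88 to 5.09), and Trim65 at 23 against 4.16 CPM, 5.54-fold lower (3.89 to 8.09). These 3 were also at least 2-fold lower with TMM and against the Klf1-high cells. Trim16 and Trim14, which lack a RING finger as well, were at 10.3 against 0.562 CPM and 8.37 against 0.562 CPM. The Trim16 counts of CFU-E cells were all from 1 cell and its log2 difference was -0.83 among odd and -4.30 among even label numbers. For Trim14 the values were -1.47 and -3.73, and 31.3% of its exonic bases overlap Nans on the other strand.

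By domain class, the 38 PRY-SPRY members had 27 genes with a count and 17 measured, of which 1 was at least 2-fold higher (Trim10) and 9 were lower, beside 6.28% and 34% of all genes. With TMM 2 of 16 were higher and 7 lower (15.4% and 18.9% of all genes), and against the Klf1-high cells 3 of 17 were higher and 8 lower (5.97% and 31.3%). The class median moved from -0.91 on total counts to -0.10 with TMM. Of the 4 NHL members Trim2 was higher, Trim32 lower, Trim3 at 1.12 CPM or less, and Trim71 without a count after thinning. The 4 members with COS box, FN3 and PRY-SPRY domains (Trim9, Trim36, Trim46 and Trim67) had counts but none was measured. At chr17:36837134-36910214, 73.1 kb that hold Trim26, Trim15, Trim10, Trim40 and Trim31, only Trim10 and Trim26 had a count after thinning, and Trim15, Trim31 and Trim40 had none in any well. The neighbours Trim58, Trim17 and Trim11 on chromosome 11 included 2 measured genes, neither of them 2-fold different.

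On the BFU-E plate itself, 11 of 32 measured members were at least 2-fold higher in Mpo-high than in Klf1-high cells (34.4%, against 14.3% of 9918 genes) and 4 were lower (12.5%, against 8.72%), with a median log2 difference of 0.64 beside 0.00 over all genes. The 11 were Trim5, Trim6, Trim12a, Trim12c, Trim21, Trim24, Trim26, Trim30a, Trim36, Trim39 and Trim68, and the 4 were Trim16, Trim30d, Trim37 and Trim58. The family took 1402 CPM in Mpo-high and 1047 CPM in Klf1-high cells. Trim37 was at 107 CPM (98 to 116) in Klf1-high and 50 CPM (43.3 to 57.4) in Mpo-high cells. Clusters were set by expression, so these are descriptions of how the members lay over the plate.

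**Figure D5:**
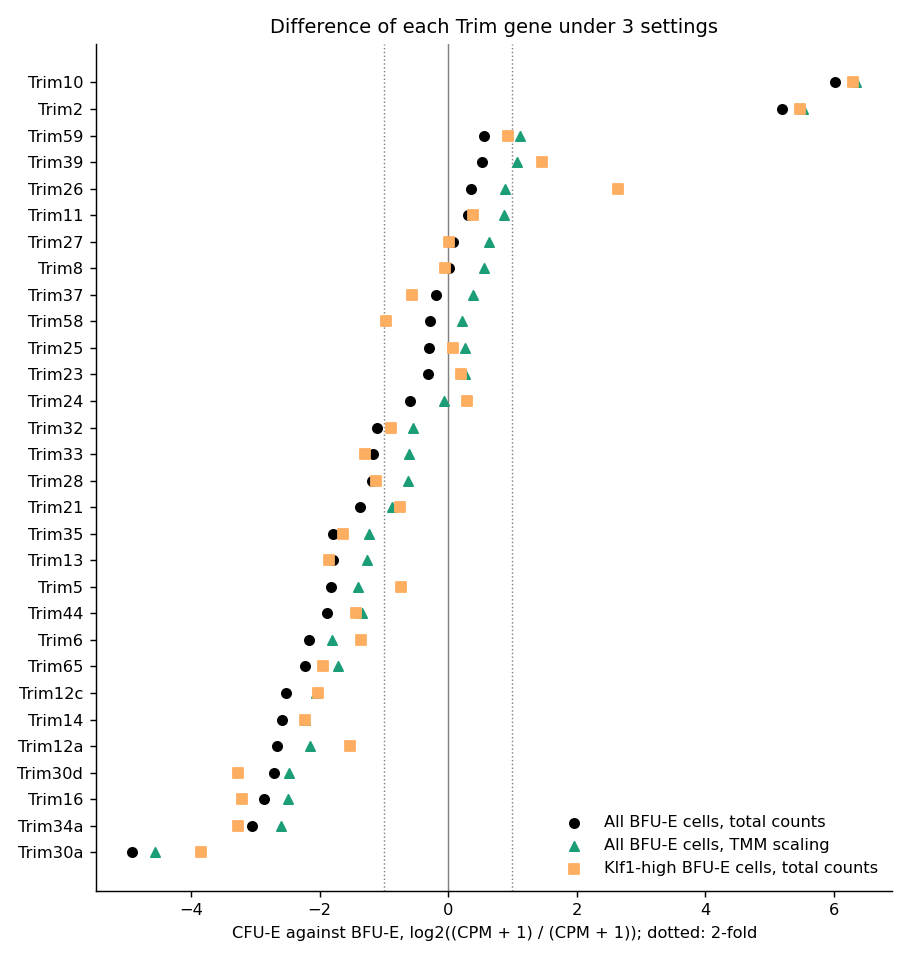
Log2 difference of CFU-E against BFU-E cells for 30 Trim genes with total-count scaling (black), with TMM scaling (green) and against the Klf1-high BFU-E cells only (orange); the dotted lines mark 2-fold. The green symbols lie to the right of the black ones for every gene, Trim26 moves from 0.36 to 2.65 against Klf1-high cells, and Trim10, Trim2 and Trim30a differ by more than 3 in size on every setting shown.

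Counting intervals understate the spread between cells. The variance of counts over their mean, which is 1 for pure counting error, ranged in BFU-E cells from 4.01 for Trim8 to 20.8 for Trim13, where genes of a similar level had medians of 8.35 and 8.02. For Trim13 a single cell held 23% of the BFU-E counts. In CFU-E cells the ratio was 7.88 for Trim10 (6.04 among genes of its level), 9.32 for Trim2 (5.55) and 4.06 for Trim28 (5.72). Besides Trim26, 5 named members turned sign between odd and even label numbers. They were Trim8 (0.71 and -0.87), Trim24 (0.32 and -1.62), Trim11 (0.64 and -0.16), Trim27 (-0.24 and 0.41) and Trim37 (0.0036 and -0.40).

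The remaining 16 members with a count after thinning were Trim3, Trim9, Trim17, Trim30b, Trim34b, Trim36, Trim41, Trim43c, Trim45, Trim46, Trim47, Trim55, Trim56, Trim62, Trim67 and Trim68. They lay between 0.109 and 9.78 CPM in BFU-E and between 0 and 7.19 CPM in CFU-E cells, with 3 higher and 13 lower in CFU-E cells. The share of all genes on each side was not counted and some of these members had very few counts, so this split describes these members only. Trim68 was the only one among them that was measured and at least 2-fold different (9.78 against 4.72 CPM, named after its values were seen), and among even label numbers it was at least 2-fold higher instead. Including Trim30d, 9 members had BFU-E counts and no CFU-E count. Their BFU-E counts ran from 1 (Trim67) to 51 (Trim30d), in at most 7 cells (Trim36). The share of all genes with this pattern was not counted, so the number describes these members only. Trim7, Trim43a, Trim66 and Trim71 had counts in wells but none after thinning. No count was found in any well for Trim15, Trim29, Trim30c, Trim31, Trim38, Trim40, Trim42, Trim43b, Trim50, Trim52, Trim54, Trim60, Trim61, Trim63, Trim69, Trim72, Trim75 and Trim80.

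Tripartite-motif proteins with other symbols and the enzymes that feed the ligases were read in the same way. Of 9 such genes 2 were measured: Pml, the organiser of nuclear bodies, was at 103 CPM in BFU-E against 107 CPM in CFU-E cells, and Mid1, a microtubule-bound ligase, at 45.3 against 19.9 CPM. Of 27 genes for ubiquitin E1 and E2 enzymes, 23 were measured, 7 were at least 2-fold lower and 1 was higher (4 and 2 with TMM), with a median log2 difference of -0.41 beside -0.57 over all genes. The lower counts were near the 34% and, with TMM, the 18.9% of all genes. Ube2w (66.5 against 13.4 CPM) and Ube2d2a (30.5 against 7.98 CPM) were lower, and Ube2l6, an enzyme of ISG15 conjugation, was higher (22.3 against 77.8 CPM).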

How the data were processed

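Single cells from mouse fetal liver were measured by SmartSeq2, in 96 BFU-E and 95 CFU-E wells, and 1 further column, whose name matched no sample, was left aside. The authors deposited unnormalized counts, in whole numbers per gene; the submitters' processing notes name STAR 2.4, featureCounts and GRCm38. Which annotation they counted on, whether strand was used and how reads with several map positions were treated is not given in the sources used here.

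Cells were kept from 100000 counts and 2000 genes upward, thinned without replacement to 100000 counts (seed 1) and summed to 9200000 BFU-E and 8900000 CFU-E counts, where 3 counts, the floor, are 0.326 and 0.337 CPM. Levels carry exact Poisson, ratios exact conditional binomial and shares exact Clopper-Pearson 95% intervals. Cells are not replicates, so no test was made. Log2 differences add 1 CPM to both levels; a gene was measured at a mean of 5 CPM. Positions and exonic lengths are from GENCODE M21 on GRCm38. The BFU-E plate was split by Ward clustering on 10 principal components, computed from its 1000 most variable genes other than the members (2 clusters, mean silhouette 0.326); CFU-E cells were not split (0.159, under the minimum of 0.2). Wells received single cells, and doublets were not called.

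Named genes were members with at least 10 CPM in either type, those with at least 5 CPM in the higher type and a 4-fold difference, and Trim10, Trim58, Trim28, Trim33 and Trim24; of each partner list, the 3 with the largest difference. The members, lists and rules were chosen with earlier results of these data known. Alternatives covered the cell filter, thinning, scaling, level filter, pseudocount and the cells used; those that left out the 6 CFU-E cells with lymphoid markers, alone or with the Mpo-high cells, were chosen after seeing the data. The counting scripts were tested on simulated data. Work was done in Python 3.11.15 with numpy 2.4.6, pandas 2.3.3, scipy 1.17.1, scikit-learn 1.9.0 and matplotlib 3.10.9.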

Additional observations from a re-analysis of the deposited data

How the results depend on the processing

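On total counts 2 members were higher and 14 lower in CFU-E cells, with a median log2 difference of -0.59. TMM gave 4, 9 and a median of 0.079, and median-of-ratios factors gave 5, 8 and 0.13, both medians having turned sign with that of all genes. The median was -0.69 without thinning, -0.70 with the 100 most abundant genes left out of the totals, -1.13 at a level of at least 1 CPM (20 members lower), -0.24 at a level of at least 20 CPM (5 members lower), -1.0 in cells with even label numbers and -0.44 with the top cell of each gene left out. At levels of at least 1 and 20 CPM, 40.3% and 25.6% of all genes were at least 2-fold lower. The count of higher members was 4 against the Klf1-high cells alone, and 4 when the lymphoid-marker CFU-E cells were left out as well. Under 13 settings, 0 of the 19 named differences of at least 2-fold turned sign. These 19 were picked by their size, and a change of pseudocount cannot turn a sign. Of the smaller named differences, those of Trim59 and Trim39 turned in 0 settings. The others turned in 1 (Trim11) to 5 (Trim8) settings. With 1 sample per cell type, the spread between animals or plates could not be estimated. No paired analysis was possible because the label numbers shared by the plates only name cells and no result comes from a test.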
